A study of Homo sapiens with 17 samples.

Results

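The growth factor receptor kinases described here are 10 genes: the PDGF receptors PDGFRA and PDGFRB, the EGF receptor family members EGFR and ERBB2, FGFR1, the insulin-type receptors IGF1R and INSR, the HGF receptor MET, the GAS6 receptor AXL and the collagen receptor DDR2. They were chosen by name, and all 10 were found among the 9699 genes of the table of RNA-Seq and Ribo-Seq levels. Receptor tyrosine kinases span the cell membrane, bind a secreted or matrix ligand outside the cell and phosphorylate themselves and adaptor proteins inside it. The signal passes through RAS to the MAP kinases and through PI3K to AKT and mTOR. Fibroblasts are classic PDGF-responsive cells and take most of their mitogenic cues from serum through receptors of this kind.

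The study profiled BJ cells, human fibroblasts immortalized by hTERT expression, by RNA-Seq, which measures transcript abundance, and by Ribo-Seq, which counts the fragments of mRNA protected by ribosomes. Its 17 samples, 9 of RNA-Seq and 8 of Ribo-Seq, covered proliferation, quiescence brought on by serum depletion, a pre-senescent state after 5 days and a senescent state after 14 days of RASG12V induction with 1e-07 M tamoxifen, and transformed cells. The cells labelled transformed carried hTERT, stable knockdowns that include p16INK4A, and SV40 small T, and received RASG12V by retrovirus, so they differed from the control in several introduced genes at a time. Proliferating cells were kept under normal conditions. The table holds 6 RNA and 6 Ribo-Seq columns: proliferating cells of the first sequencing run (run 1), the quiescent and pre-senescent cells of that run, and the proliferating, senescent and transformed cells of run 2.

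For 2 Ribo-Seq libraries, senescent and proliferating run 2, the GEO title and the condition field were at odds with each other. Titles were followed here, because the columns of the table carry the same names. Under the other reading every senescent Ribo-Seq and translation result below, and every Ribo-Seq and translation result against the run 2 control, would rest on exchanged libraries. The proliferation marker MKI67 stood at 43.0 Ribo-Seq FPKM in the column named as the run 2 control and was listed at the floor of 1 in the column named senescent, beside 44.0 and the floor in the matching RNA columns. Over 8414 genes the RNA and Ribo-Seq log2 ratios of senescent cells to the run 2 control had a Pearson r of 0.80 under the titles. Exchanging the Ribo-Seq pair would reverse the sign of this value. Of the genes that the labels target, CDKN2A, which encodes p16INK4A and a second protein, went against its knockdown at the RNA level, with 6.75 FPKM in the control and 12.6 in the library labelled transformed, while its Ribo-Seq level was 8.92 and 5.51. HRAS RNA was lower in the control than in RASG12V cells only in the senescent comparison. Its RNA level was 2415 FPKM in run 1 and 1284 in run 2 proliferating cells, 1254 in quiescent, 2102 in pre-senescent and 2087 in senescent cells, and 312 in the library labelled transformed. The methods name an inducible construct that joins RAS to the hormone-binding part of the estrogen receptor, and ESR1 Ribo-Seq levels, looked up after the HRAS values were seen, were 332, 242, 177, 214 and 532 FPKM in the same 5 conditions against 8.84 in the library labelled transformed. The proliferating and quiescent columns thus held both signals of the construct without a label that names it. All 9 of the 9 fibroblast markers were in the table, summing to between 5494 and 8158 RNA FPKM. None of the 4 epithelial, 3 endothelial or 2 muscle markers was listed, and of 3 leukocyte markers the table had CD68 and CD14, summing to between 39.3 and 133 RNA FPKM, with CD14 itself between 1 and 1.67.

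Levels are FPKM, read fragments scaled to transcript length and to the reads of the library, with values under 1 set to 1 by the authors. Translation efficiency (TE) is the log2 ratio of a gene's Ribo-Seq FPKM to its RNA FPKM. Each condition was set against the proliferating cells of its own run, and a gene was counted as different when the 2 levels, or the 2 efficiencies, lay at least 2-fold apart. With 1 value a condition no difference has a replicate check or a p-value. Proliferating cells, the only condition present in both runs, serve as a yardstick: between runs the log2 differences of all genes had an SD of 0.63 for RNA, 0.84 for Ribo-Seq and 0.59 for TE. By the same 2-fold count 7.99% of all genes differed between the 2 proliferating cultures in RNA, 18.9% in Ribo-Seq and 8.51% in TE, and none of the 10 receptors did in any of these 3 measures. Their largest run differences were those of AXL RNA, with a log2 ratio of -0.79, and of INSR Ribo-Seq, 0.87. In such bulk samples fewer cells that carry a transcript and less of it per cell cannot be told apart.

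AXL had the highest RNA level of the 10 in every column and INSR the lowest. In run 1 proliferating cells the RNA order was AXL, DDR2, FGFR1, EGFR, PDGFRB, MET, PDGFRA, ERBB2, IGF1R and INSR. The median RNA level of the receptors was 35.1 FPKM there against 13.6 for all genes, and it was 37.7 in run 2 proliferating cells, 47.5 in quiescent, 34.1 in pre-senescent, 15.9 in senescent and 37.3 in the library labelled transformed. The senescent column had the lowest median, and there the median of all genes was 12. At the Ribo-Seq level the receptors' median was 31.8 FPKM in run 1 and 39 in run 2 proliferating cells, 67.0 in quiescent, 36.0 in pre-senescent, 35.2 in senescent and 52.8 in the library labelled transformed, so that the senescent median lay between those of both controls.

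The PDGF receptors had the widest RNA ranges of the 10, whereas in Ribo-Seq MET ranged more widely than PDGFRA. PDGFRA (transcript ENST00000257290), which binds PDGF-AA as well as other PDGF dimers, had RNA levels of 22.3 and 27.9 FPKM in the proliferating cells of runs 1 and 2, 58.1 in quiescent, 32.1 in pre-senescent, 10.1 in senescent cells and 71.7 in the library labelled transformed. Its Ribo-Seq levels in the same order were 33.5, 37.8, 90.6, 57.2, 21.8 and 106 FPKM. Quiescent cells and the library labelled transformed were thus high and senescent cells low in both assays. PDGFRA RNA was 2.61-fold higher in quiescent cells and 2.57-fold higher in the library labelled transformed than in the controls, and 2.76-fold lower in senescent cells. At the Ribo-Seq level the first 2 differences were 2.71-fold and 2.80-fold and the senescent one 1.73-fold, and TE differed by 0.05, 0.12 and 0.67 in log2 in the 3 states. In the order of its RNA levels, 2 of the 5 steps between neighbouring columns were larger than the run-to-run SD, the widest of them that from run 1 proliferating down to senescent cells, 1.14 in log2.

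PDGFRB (ENST00000261799), the main receptor for PDGF-BB, had RNA levels of 36.2 and 48.5 FPKM in proliferating cells, 59.0 in quiescent, 11.4 in pre-senescent, 4.49 in senescent cells and 60.9 in the library labelled transformed. Its Ribo-Seq levels were 41.9, 58.7, 104, 25, 7.78 and 70.8 FPKM. Senescent cells were lowest in both assays, with pre-senescent cells next. PDGFRB RNA was 10.8-fold lower in senescent than in run 2 proliferating cells and the Ribo-Seq level 7.55-fold lower, the largest differences from a control that any of the 10 receptors showed. Of all genes compared, 1.18% had a lower RNA log2 ratio than PDGFRB in senescent cells, and 2.58% a lower Ribo-Seq log2 ratio. After 5 days its RNA was already 3.17-fold lower than in the run 1 control, which put it below all but 0.42% of genes, while its Ribo-Seq level was 1.68-fold lower. In quiescent cells the RNA was 1.63-fold higher and the Ribo-Seq level 2.47-fold higher, which became a log2 ratio of 0.82 against the run 2 control. The library labelled transformed was within 1.26-fold of its control at the RNA level and within 1.21-fold at the Ribo-Seq level. Fibroblast marker genes also differed. Of the 9 markers, 6 were at least 2-fold lower in senescent RNA and 0 higher, with a median log2 ratio of -1.60, beside 20.4% of all genes counted. The run 2 control was itself high for these markers. There 5 of the 9 were at least 2-fold above run 1 proliferating cells in RNA and 0 lower, with a median log2 ratio of 1.84, beside 7.99% of all genes. COL1A1 was 1328 FPKM in run 2 proliferating and 51.6 in senescent cells, whereas VIM was 2956 and 3943. In the library labelled transformed, where PDGFRB was slightly above its control, 3 of the 9 were lower and 0 higher, beside 10.4% of all genes. LUM was 13.3 FPKM there against 155 in the run 2 and 33.55 in the run 1 control. DCN was 15.5 against 164 and 27.6. The part of these differences in the PDGFRB result was not tested.

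Over the 8 log2 ratios of 4 conditions to their controls, in RNA and Ribo-Seq, PDGFRA and PDGFRB were the most alike pair of the 45 that the 10 receptors form, with a Pearson r of 0.96. These ratios share their control columns, so the coefficient is given as a description. The pair was unlike in pre-senescent cells, where the RNA log2 ratio was 0.53 for PDGFRA and -1.67 for PDGFRB, and in the library labelled transformed, where it was 1.36 and 0.33. The lowest value of any pair, -0.79, was that of PDGFRB and MET. Because PDGFRA and PDGFRB were the most alike pair, the 250 bases before their RefSeq start sites (GRCh38.p14) are shown, 5′ to 3′ on the strand of the gene. PDGFRA has a pair of listed starts on the plus strand of chromosome 4, with windows at chr4:54229043-54229292 and chr4:54233710-54233959, and PDGFRB has 1 on the minus strand of chromosome 5, chr5:150155846-150156095. Capitals mark matches to 4 motifs searched on both strands. These were the CCAAT box (CCAAT), the GC box (GGGCGG), the core of the TATA box (TATAAA) and a loose AP-1-like pattern with any middle base (TGANTCA).
PDGFRA upstream start: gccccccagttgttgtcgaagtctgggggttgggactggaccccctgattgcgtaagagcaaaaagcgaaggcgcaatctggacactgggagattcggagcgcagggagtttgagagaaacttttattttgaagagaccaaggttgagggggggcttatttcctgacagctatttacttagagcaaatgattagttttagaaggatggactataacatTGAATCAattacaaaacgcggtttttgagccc
PDGFRA downstream start: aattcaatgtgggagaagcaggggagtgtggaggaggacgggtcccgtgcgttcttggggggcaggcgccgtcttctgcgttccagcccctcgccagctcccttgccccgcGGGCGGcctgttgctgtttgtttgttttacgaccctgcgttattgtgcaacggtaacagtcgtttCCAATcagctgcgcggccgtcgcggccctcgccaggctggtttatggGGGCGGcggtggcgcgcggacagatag
PDGFRB: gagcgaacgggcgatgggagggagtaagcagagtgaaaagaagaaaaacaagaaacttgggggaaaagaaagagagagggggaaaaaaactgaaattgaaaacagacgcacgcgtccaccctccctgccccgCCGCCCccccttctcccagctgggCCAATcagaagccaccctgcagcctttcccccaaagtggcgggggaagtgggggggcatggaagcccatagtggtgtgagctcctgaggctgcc
The upstream PDGFRA window held 1 match to the loose TGANTCA pattern, reading TGAATCA, 32 bases before the start, and no other match. The downstream PDGFRA window held CCAAT at 74 bases and GGGCGG at 139 and 27 bases before the start. In the PDGFRB window CCAAT lay 94 bases before the start on the gene's strand, and GGGCGG, which reads CCGCCC in the letters shown, 118 bases before it on the opposite strand. No matches overlapped. Among 35116 promoter windows of this length, 32.0% held CCAAT, 42.6% GGGCGG, 10.7% TATAAA and 6.57% TGANTCA, so the 2 motifs that the downstream PDGFRA window and the PDGFRB window share are common. The GC content of the 3 windows was 46.8%, 64% and 58.4%, against a median of 58% over all windows. These matches describe letters in the reference sequence, and binding at them was not measured here.

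EGFR (ENST00000275493), the receptor for EGF, TGFA and related ligands, was the steadiest of the receptors in Ribo-Seq. RNA levels were 38.3 and 38.7 FPKM in proliferating cells, 36.9 in quiescent, 36.0 in pre-senescent, 21.7 in senescent cells and 37.1 in the library labelled transformed. In Ribo-Seq the values were 65.7, 77.0, 88.3, 84.2, 86.3 and 77.5 FPKM. Senescent cells thus stood apart in RNA, where 5 columns lay between 36.0 and 38.7, but were near the top in Ribo-Seq, where the highest column was only 1.34-fold above the lowest. EGFR RNA was 1.78-fold lower in senescent cells and its Ribo-Seq level 1.12-fold higher. The resulting TE difference, 1.99-fold, fell just short of the 2-fold count, and 97.3% of the genes compared had a lower TE ratio.

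ERBB2 (ENST00000269571), which has no known ligand of its own and signals as a partner of the other EGF receptor family members, was at lower levels. Its RNA values were 13.3 and 19.9 FPKM in proliferating cells, 14.1 in quiescent, 7.98 in pre-senescent, 9.37 in senescent cells and 15.8 in the library labelled transformed. The Ribo-Seq values were 6.93, 8.00, 9.38, 8.80, 6.05 and 7.18 FPKM. RNA exceeded Ribo-Seq in every column except the pre-senescent one. In pre-senescent cells ERBB2 RNA was 1.67-fold lower than in the control and Ribo-Seq 1.27-fold higher, which made TE 2.11-fold higher. Senescent cells had 2.12-fold less ERBB2 RNA and a Ribo-Seq level 1.32-fold lower, but against the run 1 control the RNA log2 ratio was -0.50. No step between neighbouring columns in the order of its levels exceeded the run-to-run SD in either assay. The pre-senescent TE difference fell below 2-fold, to a log2 ratio of 0.98, with a pseudocount of 1 FPKM.

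MET (ENST00000318493), the receptor for hepatocyte growth factor (HGF), took different courses in the 2 assays. RNA levels were 34.0 and 36.7 FPKM in proliferating cells, 16.2 in quiescent, 43.5 in pre-senescent, 35.1 in senescent cells and 12.6 in the library labelled transformed. Its Ribo-Seq levels were 30.2, 31.4, 12.8, 41.8, 81.4 and 17.0 FPKM. Quiescent cells and the library labelled transformed were low in both assays, whereas senescent cells were at the control level in RNA and highest in Ribo-Seq. The senescent RNA level differed from the control by a log2 ratio of -0.07 and the Ribo-Seq level was 2.59-fold higher, so that TE was 2.71-fold higher. Of the 8839 genes compared, 99.7% had a lower TE ratio in this comparison. Quiescent cells had 2.09-fold less MET RNA and 2.36-fold less in Ribo-Seq, with a TE log2 difference of -0.17. In the library labelled transformed MET RNA was 2.91-fold lower and Ribo-Seq 1.85-fold lower. HGF, its ligand, was 2.91 FPKM in RNA in the run 1 control and 10.3 in quiescent cells, and 9.34 and 23.7 FPKM in Ribo-Seq. In senescent cells, where MET was highest in Ribo-Seq, HGF was also highest in Ribo-Seq, at 39.2 FPKM against 12.3 in the run 2 control. Its RNA there was 4.70 against 3.16 FPKM. Pre-senescent HGF was 3.70 FPKM in RNA and 11.8 in Ribo-Seq.

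FGFR1 (ENST00000425967), a receptor for fibroblast growth factors, varied little. Its RNA levels were 48.9 and 68.7 FPKM in proliferating cells, 62.0 in quiescent, 40.7 in pre-senescent, 48.9 in senescent cells and 67.2 in the library labelled transformed. In Ribo-Seq it was at 29.7, 40.2, 45.6, 30.3, 48.5 and 34.8 FPKM. No condition was 2-fold from its control in either assay, and no step in the order of its columns was larger than the run-to-run SD. Its TE was below 0 in all 6 columns, from -0.95 in the library labelled transformed to -0.01 in senescent cells, which means fewer Ribo-Seq than RNA FPKM throughout.

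IGF1R (ENST00000268035), the receptor for IGF1 and IGF2, was at RNA levels of 11.0 and 11.6 FPKM in proliferating cells, 9.33 in quiescent, 4.90 in pre-senescent, 3.63 in senescent cells and 4.61 in the library labelled transformed. Its Ribo-Seq levels were 11.2, 15.6, 13.4, 8.36, 7.69 and 5.99 FPKM. Pre-senescent cells, senescent cells and the library labelled transformed were the low ones in both assays. IGF1R RNA was 2.24-fold lower in pre-senescent cells, 3.19-fold lower in senescent cells and 2.51-fold lower in the library labelled transformed. In Ribo-Seq the pre-senescent level was 1.34-fold lower, the senescent level 2.03-fold lower and that of the library labelled transformed 2.60-fold lower. Against the run 1 control the last 2 Ribo-Seq log2 ratios were -0.54 and -0.90, under 2-fold. TE differed by 0.74 and 0.65 in log2 in the first 2 and by -0.05 in the last.

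INSR (ENST00000302850), the insulin receptor, was close to the floor of the table. RNA was 1.19 and 1.77 FPKM in proliferating cells, 1.81 in quiescent cells and 1.87 in the library labelled transformed, and it was listed at the floor of 1 in pre-senescent and senescent cells. The Ribo-Seq levels were 1.38, 2.53, 3.29, 1.53 and 1.36 FPKM in proliferating cells of run 1 and run 2, quiescent, pre-senescent and senescent cells, and 2.54 in the library labelled transformed. INSR was the receptor with the weakest measurement, and its quiescent Ribo-Seq level, 2.38-fold above the control, was 3.29 against 1.38 FPKM and fell to a log2 ratio of 0.38 against the run 2 control. No fold is given against the columns at the floor, and TE was not compared there.

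AXL (ENST00000301178), the receptor for GAS6 and a member of the TAM family, was highest in run 1 proliferating cells, at 284 FPKM in RNA. The other RNA levels were 165 in run 2 proliferating, 106 in quiescent, 167 in pre-senescent, 97.0 in senescent cells and 156 in the library labelled transformed. Its Ribo-Seq levels were 281 and 175 FPKM in proliferating cells, then 140, 220, 121 and 161 in the same order. Quiescent AXL RNA was 2.68-fold and Ribo-Seq 2.01-fold lower than in run 1 proliferating cells. Against run 2 proliferating cells the quiescent RNA log2 ratio was -0.64 in place of -1.42 and the Ribo-Seq log2 ratio -0.33, so both 2-fold differences rested on the run 1 control. Senescent cells had a log2 ratio of -0.76 in RNA and -0.53 in Ribo-Seq against their own control but -1.55 and -1.22, past 2-fold, against that of run 1. The library labelled transformed was at -0.08 and -0.12 against its own control. GAS6 RNA was 187 FPKM in the run 1 control, 58.0 in pre-senescent and 244 in quiescent cells. In Ribo-Seq the same columns were 81.4, 45.4 and 154 FPKM. GAS6 RNA was 185 FPKM in the run 2 control, 195 in senescent cells and 82.7 in the library labelled transformed, with 51.6, 82.4 and 23.5 in Ribo-Seq.

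DDR2 (ENST00000367922), which binds fibrillar collagen, had RNA levels of 59.3 and 98.8 FPKM in proliferating cells, 92.4 in quiescent, 59.0 in pre-senescent, 66.9 in senescent cells and 37.4 in the library labelled transformed. In Ribo-Seq the levels were 107, 112, 141, 113, 132 and 72.6 FPKM. The library labelled transformed was lowest in both assays. DDR2 RNA was 2.64-fold lower there than in run 2 proliferating cells and the Ribo-Seq level 1.54-fold lower. With the run 1 control the RNA log2 ratio was -0.66 in place of -1.40, below the 2-fold count. The genes of its fibrillar collagen ligands were themselves unlike between the controls. COL1A1 RNA was 371 FPKM in run 1 and 1328 in run 2 proliferating cells and 762 in the library labelled transformed.

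Set against the rest of the table, the receptors differed from their controls as follows. In quiescent cells 1 receptor (PDGFRA) was at least 2-fold higher and 2 (MET and AXL) at least 2-fold lower in RNA, where 6.54% of all genes were counted. In Ribo-Seq 3 receptors (PDGFRA, PDGFRB and INSR) were higher and 2 (MET and AXL) lower, beside 17.5% of all genes. None differed in TE, where 7.06% of all genes did. In pre-senescent cells 2 receptors (PDGFRB and IGF1R) were lower in RNA, with 3.87% of all genes counted, and 0 differed in Ribo-Seq, with 17.9%. ERBB2 had a higher TE, and 13.2% of all genes were counted in TE.

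In senescent cells 4 receptors (PDGFRA, PDGFRB, ERBB2 and IGF1R) were lower in RNA, against a background of 20.4% of all genes. All 10 receptors had an RNA log2 ratio below 0, with a median of -0.83 (INSR taken at the floor), whereas 4856 of the 9560 genes compared lay below 0 and their median was -0.02. The control of run 2 was itself high for these receptors, since 9 of the 10 had more RNA there than in run 1 proliferating cells, with a median log2 difference of 0.37 beside -0.06 for all genes. Against the run 1 control 8 of the 10 senescent values lay below 0, while MET was at 0.04 and DDR2 at 0.17. Among the 8, FGFR1 was level, at 48.9 FPKM in both columns, and INSR rested on the floor of 1 against 1.19. In Ribo-Seq PDGFRB and IGF1R were lower and MET higher, with 28% of all genes counted. MET alone passed in TE, where 8.55% of all genes did. In the library labelled transformed PDGFRA was higher and IGF1R, MET and DDR2 lower in RNA, where 10.4% of all genes were counted. PDGFRA was higher and IGF1R lower in Ribo-Seq, with 12.8%, and no receptor was counted in TE, with 2.69%.

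**Figure D1:**
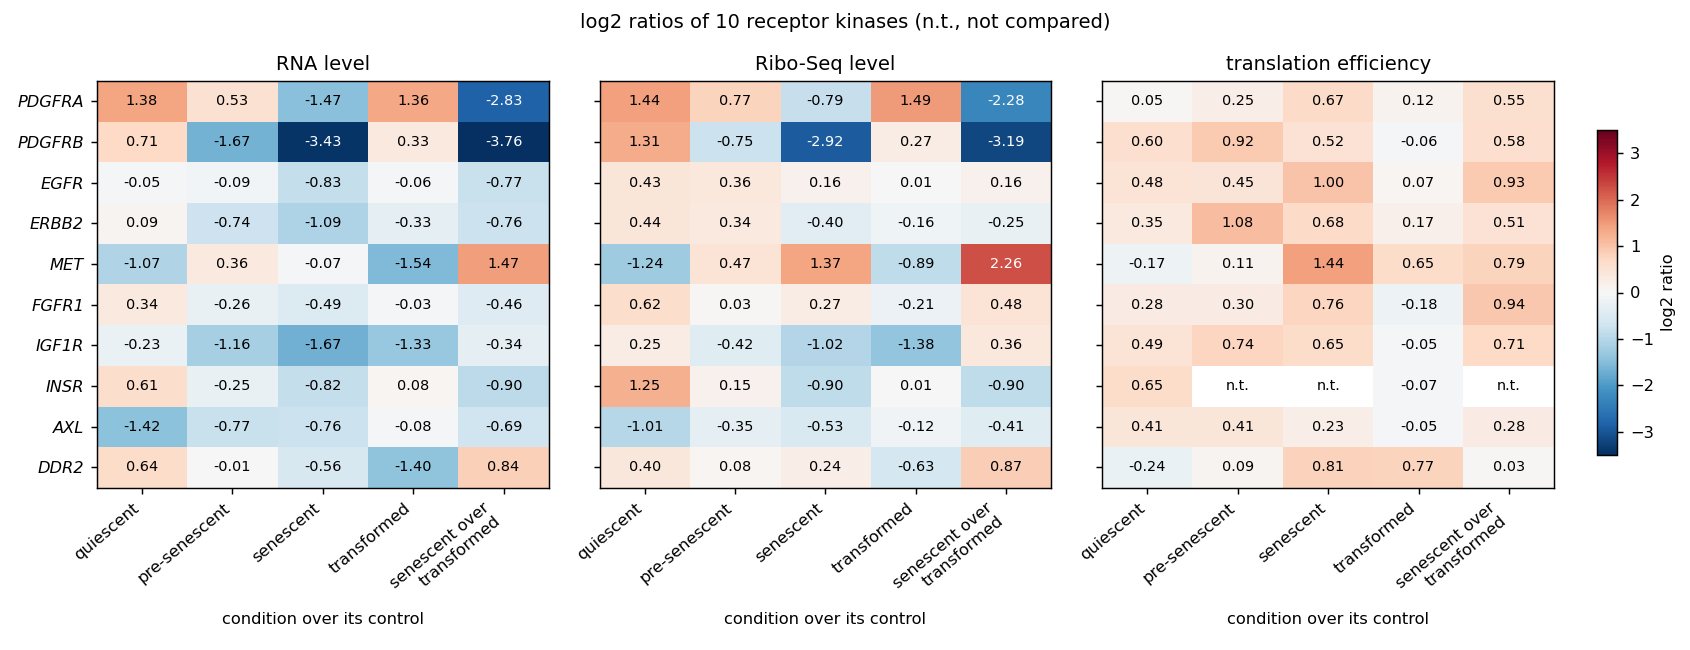
Log2 ratios of the 10 receptors (rows) in RNA level, Ribo-Seq level and translation efficiency for quiescent and pre-senescent cells over the run 1 control, senescent cells and the library labelled transformed over the run 2 control, and senescent cells over the library labelled transformed. Red is higher and blue lower in the condition named; blank cells marked n.t. are INSR efficiencies with an RNA level at the floor, and the deepest blue is PDGFRB in senescent cells over the library labelled transformed, -3.76 in RNA.

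Senescent cells and the library labelled transformed both carried RASG12V by their labels and came from the same run, which allows a direct comparison. PDGFRA RNA was 7.11-fold and PDGFRB RNA 13.6-fold lower in senescent cells than in the library labelled transformed, and their Ribo-Seq levels were 4.86-fold and 9.10-fold lower. MET went the other way, 2.78-fold higher in RNA and 4.80-fold higher in Ribo-Seq in senescent cells. These were the 3 receptors counted in each assay, where 23.5% of all genes were counted in RNA and 30.3% in Ribo-Seq. No receptor was counted in TE, with 4.97% of all genes, the nearest being FGFR1 and EGFR with log2 differences of 0.94 and 0.93. Relative to their shared control the 2 states put PDGFRA on opposite sides, at -1.47 and 1.36 in RNA log2 ratio.

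TE of the receptors tended to lie above that of the controls. In quiescent cells 8 of the 10 receptors had a higher TE than in the control, with a median log2 difference of 0.38, when 44.3% of all genes did and the median of all genes was -0.06. All 9 receptors compared in pre-senescent cells had a higher TE, median 0.41, beside 41.2% of all genes and a median of -0.15. The senescent counts were again 9 of 9, median 0.68, beside 47.4% and -0.04. In the library labelled transformed only 5 of 10 did, with a median of 0.01 beside 42.4% and -0.07. Senescent cells and the library labelled transformed were set against 1 control, quiescent and pre-senescent cells against another, so these counts are not independent of each other. Most single differences were under 2-fold, and in senescent cells 6 of the 9 lay between 0.52 and 0.81. The run-to-run SD of TE was 0.59. Between 84.1% (PDGFRB) and 93.9% (DDR2) of the genes compared had a lower senescent TE ratio than these 6. The 14 other receptor tyrosine kinases in the table, of 42 listed, behaved likewise: 8 of 8 compared had a higher TE in senescent cells, median 0.57, and 2 of 9 in the library labelled transformed, median -0.19. The pattern therefore was not particular to the 10 receptors.

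**Figure D2:**
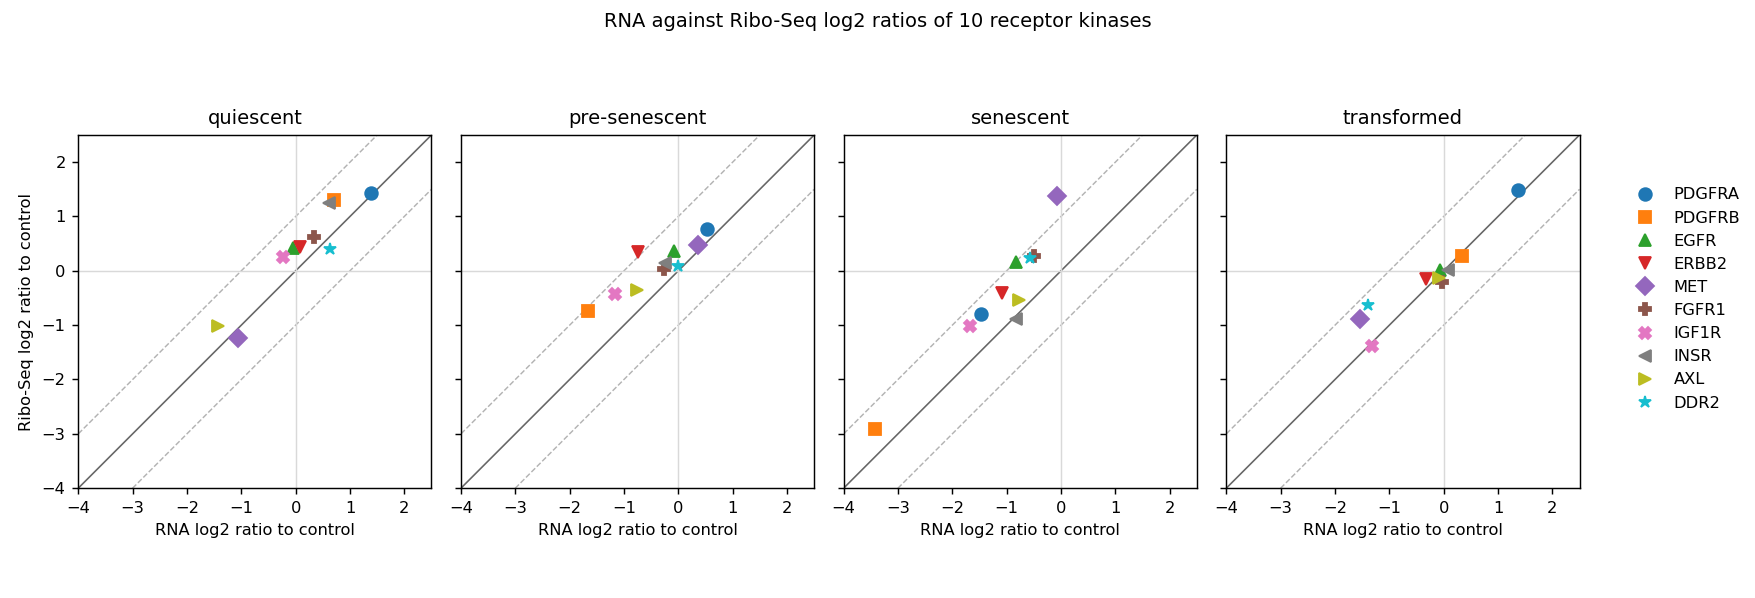
RNA log2 ratio (horizontal) against Ribo-Seq log2 ratio (vertical) of each receptor to the proliferating control of its run in 4 conditions. On the solid line both assays gave the same ratio and TE did not differ, and the dashed lines mark TE 2-fold above or below the control; in senescent cells the receptors lie above the solid line except INSR, whose RNA ratio rests on the floor, and MET lies above the upper dashed line.

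Genes that act around the receptors were counted in the same way. Of the 14 other receptor tyrosine kinases, 0 of 10 compared were 2-fold from the control in quiescent RNA, 1 was higher and 1 lower of 10 in pre-senescent, 5 were lower of 10 in senescent cells and 3 were higher and 2 lower of 12 in the library labelled transformed. The senescent median was -0.98. FLT1, a VEGF receptor, was 23.9 FPKM in run 2 proliferating and 1.67 in senescent cells, and PTK7, a kinase-dead receptor of the Wnt pathway, 53.7 and 5.17. Ligands of the 10 receptors were present as 13 of the 24 listed, 3 of them collagen genes that are also fibroblast markers. In RNA, 2 ligands were higher and 0 lower of 12 in quiescent, 1 higher and 3 lower of 12 in pre-senescent, 2 higher and 4 lower of 13 in senescent cells and 1 higher and 5 lower of 12 in the library labelled transformed. The shares of all genes were 6.54%, 3.87%, 20.4% and 10.4% in this order. Between the controls, 5 of 12 ligands were higher in run 2 than in run 1 and 0 lower in RNA, beside 7.99% of all genes. In Ribo-Seq 4 were higher and 1 lower, beside 18.9%. The ligands' median in the library labelled transformed, set against that run 2 control, was -0.66 in RNA and -1.09 in Ribo-Seq. EREG, a ligand of EGFR, was the 1 ligand counted as higher in RNA there, at 8.24 FPKM in the control and 78.4 in the library labelled transformed. HGF, at 3.16 and 5.84 FPKM in RNA, was 12.3 and 25.9 in Ribo-Seq. EREG was also higher after 5 and 14 days, at 23.3 FPKM against 7.56 in its own control and 28.4 against 8.24.

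The signalling proteins just inside the membrane were counted less often than the receptors in RNA, but not in pre-senescent Ribo-Seq. Of 21 adaptors and effectors listed, such as GRB2, SOS1, IRS1 and PLCG1, 20 were in the table, and in RNA 1 was higher in quiescent cells, 0 of 20 differed in pre-senescent and 0 in senescent cells, and 1 was lower in the library labelled transformed, with medians between -0.08 and 0.03. The last was IRS2, the substrate of the insulin-type receptors, at 4.65 FPKM in the control and 1.30 in the library labelled transformed. Beside these RNA counts stood 6.54%, 3.87%, 20.4% and 10.4% of all genes, in the same order. The quiescent share of 5% was thus close to that of all genes. In pre-senescent Ribo-Seq 4 of the 20 were lower, with a median of -0.50, a share of 20% beside the 17.9% of all genes. None of the 10 receptors was counted there. In pre-senescent TE 3 of 19 adaptors were lower and 0 higher, beside 13.2% of all genes. Their TE median was -0.51, where that of the receptors was 0.41. Of 23 genes listed as receptor brakes, such as CBL, ERRFI1 and the phosphatase PTPN1, 20 were in the table. The list is mixed, since not every gene on it, ADAM17 and USP8 for example, acts only as a brake. In RNA 0 differed in quiescent cells, and 1 was higher and 1 lower in each of the other 3 states. That share, 10%, was close to the 10.4% of all genes in the library labelled transformed, under the 20.4% in senescent and over the 3.87% in pre-senescent cells. ERRFI1, an inhibitor of EGFR and ERBB2, was the one that was higher in pre-senescent cells, 79.3 against 31.4 FPKM, and LRIG3 was lower in pre-senescent cells, 2.30 against 4.92. In the run 2 control ERRFI1 RNA was 55.5 FPKM. Its Ribo-Seq level was 25.1 FPKM in pre-senescent cells, 14.7 in the run 1 control and 24.6 in that of run 2.

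**Figure D3:**
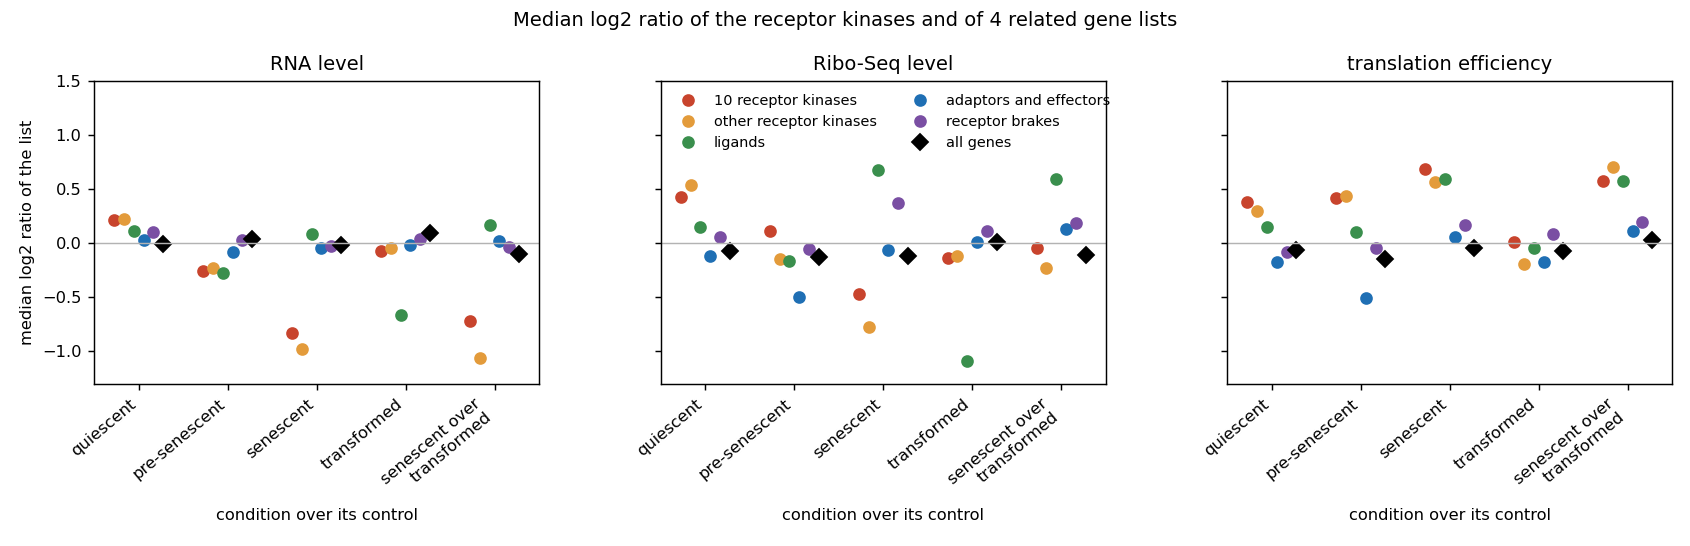
Median log2 ratio over the genes compared in each list (coloured circles) and over all genes (black diamonds), for RNA level, Ribo-Seq level and translation efficiency in 5 comparisons. In senescent cells over the control the RNA medians of the 10 receptors and of the other receptor kinases, -0.83 and -0.98, lie below those of the other lists drawn, and in the library labelled transformed the Ribo-Seq median of the ligands is -1.09.

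For each receptor the genes with the most similar course were sought among the 8414 genes above the floor in all 12 columns, by Pearson r over the same 8 ratios, which share controls and are few. The nearest to PDGFRA was FLT1 (r = 0.99) and to PDGFRB MASP1 (0.99), though FLT1 was shifted downwards, with an RNA log2 ratio of -0.24 in quiescent cells where PDGFRA had 1.38. EGFR lay nearest to TNC (0.95), ERBB2 to C9orf125 (0.98) and FGFR1 to ITGB5 (0.97). SIRPA was nearest to IGF1R (0.99), TNRC18 to INSR (0.99), RNMTL1 to AXL (0.98) and SLC16A7 to DDR2 (0.98). With 8 points and 8414 genes searched, such values are a description of shape only.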

How the data were processed

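Per the labels and the study's methods, RNA-Seq and Ribo-Seq reads were aligned with Bowtie to 1 protein-coding transcript a gene and uniquely mapped reads were kept. The labels name the build hg19. The authors deposited FPKM values in 12 columns, with levels under 1 set to 1. RNA FPKM used reads over the whole transcript and Ribo-Seq FPKM reads over the coding sequence. The values have 2 decimals and no counts, so the counting error of each gene is unknown. Read totals of the libraries are given by the study and were not used here. In all, 5 columns were taken to join 2 libraries each into the authors' value, and the other 7 to hold 1 library. The names of both run 1 proliferating columns give their 2 libraries. For both quiescent columns and pre-senescent RNA the joining was inferred, because their names carry no library number. Assignment to sequencing runs came from the study's own account of its samples, not the labels.

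From this table log2 ratios to the control of the same run were computed without a pseudocount, for genes above the floor in at least 1 of the 2 columns, or in all 4 for TE. A size of 1 (2-fold) was counted. No test was possible with 1 value a condition, and limma, planned for replicate columns, was not run. Alternatives were a pseudocount of 1 FPKM, centring on the median of all genes, the control of the other run, no filter or a filter at 5 FPKM, a 1.5-fold count, and 1.75 local SDs of the log2 ratio in windows of 501 genes of like level. Named genes were all 10 receptors, up to 2 genes a list and direction with the largest RNA difference, of which some are printed, and the genes most alike in course, of which some are not reported here. The receptors, lists and rules were chosen with earlier results of these data known. The calculations were tested on simulated data. Promoter windows came from RefSeq (GRCh38.p14). All 10 receptors matched its gene table. Python 3.11.15, numpy 2.4.6, pandas 2.3.3 and matplotlib 3.10.9 were used.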

Additional observations from a re-analysis of the deposited data

Results flagged for a closer look

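PDGFRA RNA lay on opposite sides of the shared control in the 2 RASG12V states of run 2. The log2 ratio was -1.47 in senescent cells (10.1 against 27.9 FPKM) and 1.36 in the library labelled transformed (71.7 against 27.9 FPKM). A day after RASG12V is given for the senescent cells but not for the library labelled transformed. PDGFRA was listed because the single value of each state moved the opposite way, and the difference itself was not tested.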

How the results depend on the processing

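No paired analysis was possible because the table holds 1 value a condition, and for the same reason leaving out a replicate was not possible. No log2 ratio counted as 2-fold changed direction in an alternative: of 31 such values, 29 remained past 2-fold after centring, 28 with a pseudocount of 1 FPKM and 17 of 25 against the control of the other run. Counts of receptors past 2-fold that moved by more than 1.5 times, or from or to 0, are given with the reported count in brackets. The other counts moved by at most 1 receptor, but an equal count need not be the same receptors: the senescent RNA count was 4 with either control, with AXL in place of ERBB2 against that of run 1. At 1.5-fold the RNA counts were 6 (3) in quiescent, 4 (2) in pre-senescent and 7 (4) in senescent cells and 8 (3) for senescent cells against the library labelled transformed, written transformed from here on. The Ribo-Seq counts were 2 (0) in pre-senescent, 5 (3) in senescent, 4 (2) in transformed and 5 (3) for senescent against transformed, and the TE counts 2 (0) in quiescent, 3 (1) in pre-senescent, 7 (1) in senescent, 2 (0) in transformed and 4 (0) for senescent against transformed. With the control of the other run, Ribo-Seq counts were 2 (5) in quiescent, 1 (0) in pre-senescent and 1 (2) in transformed, and the senescent TE count was 3 (1). With the cut-off in local SDs, senescent RNA gave 1 (4), Ribo-Seq 3 (5) in quiescent, 1 (3) in senescent and 1 (2) in transformed, and TE 0 (1) in pre-senescent, 1 (0) in transformed and 1 (0) for senescent against transformed. A pseudocount of 1 FPKM gave 0 (1) for pre-senescent TE, and centring 2 (1) for pre-senescent and 2 (1) for senescent TE. Lower counts at a stricter limit follow from its construction. For the other settings the cause was not tested. PDGFRB was the receptor kept past the limit in senescent RNA and Ribo-Seq under the cut-off in local SDs. Centring moved the zero by the median of all genes, which was -0.12 and -0.15 for pre-senescent Ribo-Seq and TE, -0.12 for senescent Ribo-Seq and -0.11 for senescent against transformed Ribo-Seq. The table gives no counts per gene, so how far counting error limits the low receptors INSR, IGF1R and ERBB2 is unknown.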
